A study of Homo sapiens with 6 samples.

Results

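Receptor tyrosine kinases were examined as a group of 42 genes in H1299 cells after knockdown of RBP2. H1299 is an established line from a human lung carcinoma of the non-small-cell type, and RBP2, now named KDM5A, is a demethylase of lysine 4 of histone H3. The genes were found by the symbol of the platform annotation, and each was represented by its brightest probe set, the 1 with the highest mean over the 6 arrays. Of the 42 genes, 40 had a probe set that carried their symbol alone, out of 19775 genes in all. DDR1 was left out because its 4 probe sets are also annotated to a microRNA gene, and EPHB2 was not analysed here. The series has 3 groups of 2 arrays each. The knockdown groups are called KD1 and KD2, for the shRNAs RBP2 KD1 and RBP2 KD2, and the control group carried a scramble shRNA. Per the labels, the cells were grown with 10% serum, infected with lentivirus carrying the shRNA and harvested 72 hours later. Whether the arrays of a group came from separate cultures is not in the labels. The p-values therefore cover no more than the spread among these arrays, and that spread may be technical.

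A receptor tyrosine kinase spans the cell membrane, binds a ligand outside the cell and phosphorylates tyrosines of itself and of other proteins inside it. Docking proteins then connect it to the RAS, PI3 kinase and phospholipase C pathways, while phosphatases and the ubiquitin ligase CBL end the signal. In lung cancer EGFR, MET, ALK, ROS1 and RET are known as drivers and drug targets, and AXL is known in tumour cells of mesenchymal type.

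KDM5A itself was lower in both knockdown groups. It read 7.42 and 7.27 in KD1, 6.66 and 6.72 in KD2, and 9.35 and 9.42 in scramble cells, on the log2 scale. The log2 fold change was -2.04 ± 0.11 in KD1 (SE, adjusted p = 0.00475) and -2.69 ± 0.11 in KD2 (adjusted p = 0.00237). The median over the tested genes lay between 8.49 and 8.56 on all arrays. Of the markers of the line, KRT8, KRT18 and vimentin (VIM) lay between 9.80 and 15.04 on all arrays, while KRT19 stood at the lowest value of the table. Of 10 measured markers of leukocytes, endothelium, fibroblasts and red cells, 9 stayed under 4 on all arrays, and the exception was the collagen gene COL1A1 at 6.20 to 7.02.

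Among the 40 measured receptor genes, 17 had a mean of at least 4 and were tested. Another 18 lay within 0.5 of the lowest value of the table, 2.24, on all 6 arrays, and 5 lay between. The genes near the lowest value were ERBB4, MST1R, FGFR2, FGFR3, EPHA1, EPHB1, EPHB3, EPHB6, KIT, PDGFRA, PDGFRB, KDR, RET, ROS1, ALK, NTRK2, NTRK3 and ROR2. They hold the drug targets ALK, ROS1 and RET, the stem cell factor receptor KIT and the receptors of PDGF. The 5 between were DDR2 and FLT1, which varied by at most 0.0065 over the arrays, PTK7 at 2.24 to 2.89, and EPHA3 and EPHA4, whose values are given with the Eph receptors. Next to the threshold of 4, FGFR4 with a mean of 4.37 was tested and EPHA4 with 3.97 was not. A dim probe set does not show that the gene is silent, and the brightness of probe sets was not compared between genes.

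In the mean of both shRNAs, 2 of the 17 tested receptor genes rose and 3 fell. EGFR and EPHA7 were the rises, and AXL, TYRO3 and EPHA2 the falls. Over all 10526 tested genes this comparison called 12.5%, with 5.61% higher and 6.92% lower. The mean log2 fold changes were 0.58 ± 0.12 for EGFR (SE, adjusted p = 0.0394), 2.10 ± 0.21 for EPHA7 (0.0161), -0.60 ± 0.10 for AXL (0.0267), -0.99 ± 0.09 for TYRO3 (0.0155) and -0.73 ± 0.14 for EPHA2 (0.0364). With an array left out, most of these calls of the mean were lost. KDM5A also lost its call whenever a KD2 or scramble array was left out, so the losses are not particular to receptor genes. The changes then ran from 0.52 to 0.64 for EGFR, 1.94 to 2.26 for EPHA7 and -0.69 to -0.51 for AXL. They ran from -1.03 to -0.96 for TYRO3 and -0.83 to -0.64 for EPHA2. TYRO3 was the only receptor gene called in KD1, as a fall, where 11.5% of all genes were called (3.62% higher and 7.9% lower). In KD2, EGFR, EPHA7 and ROR1 rose and AXL, EPHA2 and RYK fell, 6 of 17, against 31.0% of all genes (16.7% higher and 14.4% lower). KD1 minus KD2, the test of the difference between the shRNAs, called 4 of 17, with AXL and RYK higher and TYRO3 and EPHA7 lower in KD1, against 41.1% of all genes (17.8% higher and 23.3% lower). The shares in KD2 and in the difference thus lay near or below those of all genes. No receptor gene was called in both knockdown groups against scramble, where 3.15% of all genes were called in both in 1 direction. The median log2 fold change of the 17 was 0.10 in KD1 and -0.04 in KD2, and that of all tested genes 0.002 and 0.08. Both comparisons use the same scramble arrays.

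Arrays with the same replicate number deviated together in all 3 groups, so the comparisons were also fitted with the number as a block. The blocked model called 8 receptor genes in the mean of both shRNAs, 4 higher and 4 lower, against 34.9% of all genes (17.4% higher and 17.5% lower). In KD1 it called 5, of which 3 were higher and 2 lower, against 29.6% (12.8% and 16.8%). In KD2 it called 7, of which 4 were higher and 3 lower, against 50.6% (28.4% and 22.2%). In KD1 minus KD2 it called 7, of which 3 were higher and 4 lower, against 57.7% (25.1% and 32.6%). In this blocked model EGFR and EPHA7 were called in the same direction in both knockdown groups, and so was EPHA2. The share of all genes called in both groups was not counted for the blocked model. This overlap therefore cannot be set against that of all genes.

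**Figure D1:**
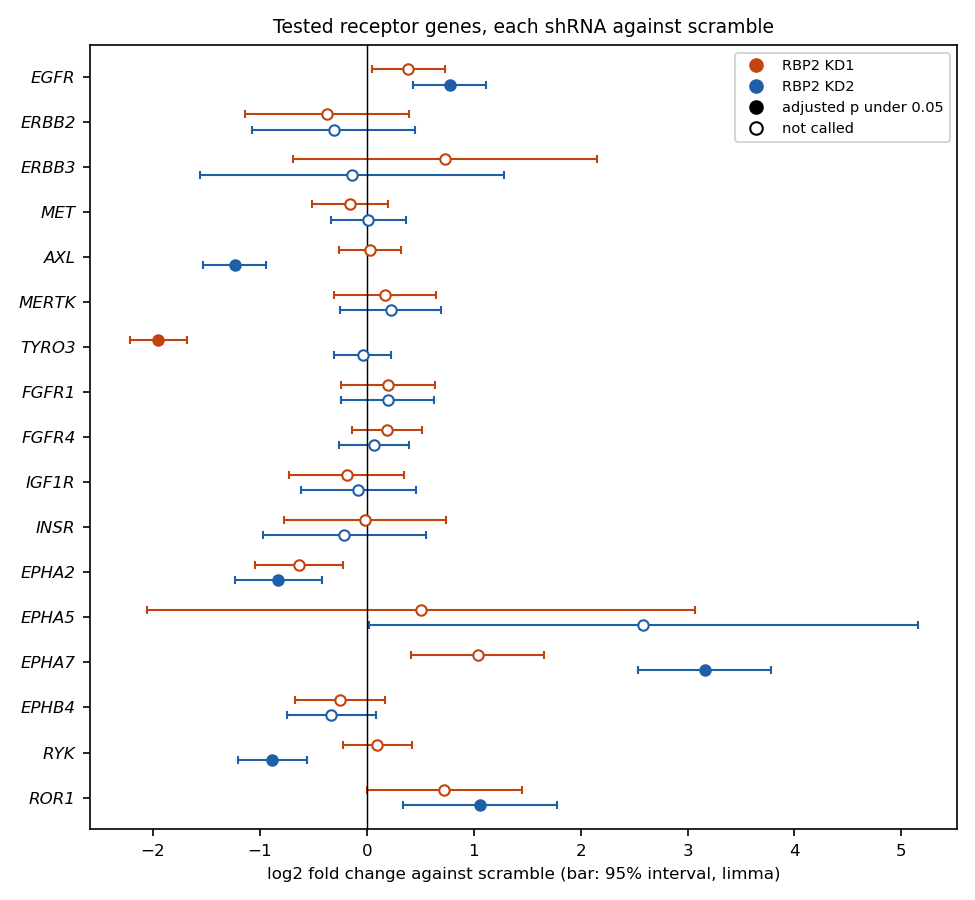
Log2 fold change of the 17 tested receptor genes in KD1 and KD2 against scramble (horizontal axis, points with 95% intervals from limma, filled where the adjusted p was under 0.05). TYRO3 is the only filled point of KD1 at -1.95, and EPHA7 lies furthest right among the filled points of KD2 at 3.16.

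The TAM receptors AXL, TYRO3 and MERTK bind GAS6, and TYRO3 and MERTK also bind protein S. Both ligands attach to phosphatidylserine on dying cells. AXL measured 13.49 and 13.43 in KD1, 12.19 and 12.21 in KD2, and 13.52 and 13.35 in scramble cells. Both KD2 arrays lay below all others, and KD1 overlapped with scramble. AXL was 2.35-fold lower in KD2 (log2 fold change -1.24 ± 0.11, SE, adjusted p = 0.00409) and stood at 0.03 ± 0.11 in KD1 (adjusted p = 0.906). The KD1 minus KD2 difference was 1.26 ± 0.11 (adjusted p = 0.00200). Its dimmer probe set read 6.36 and 5.78 in KD1, 4.65 and 4.87 in KD2, and 6.80 and 6.34 in scramble cells, again lowest in KD2. The KD2 call and the difference passed whichever array was left out. In a bulk sample, fewer cells that carry a transcript and less of it per cell cannot be told apart.

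TYRO3 showed the reverse pattern. It measured 3.81 and 3.72 in KD1, 5.68 and 5.68 in KD2, and 5.75 and 5.68 in scramble cells. Both KD1 arrays lay below all others, and KD2 was level with scramble. TYRO3 was 3.87-fold lower in KD1 (-1.95 ± 0.10, adjusted p = 0.00475), and the KD1 minus KD2 difference was -1.91 ± 0.10 (adjusted p = 0.00113). The values of both KD2 arrays and of scramble replicate 2 were identical to within 0.0001, so the KD2 pair adds no spread to the SE of TYRO3. The KD1 call was lost without scramble replicate 1 (log2 fold change -1.91) or scramble replicate 2 (-1.99). KDM5A also lost its KD1 call in these fits, so the loss says little about TYRO3 itself. The other TYRO3 probe set stood between 2.26 and 2.30 on all arrays and gives no check.

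MERTK measured 8.60 and 9.07 in KD1, 8.84 and 8.92 in KD2, and 8.58 and 8.74 in scramble cells, and the groups overlapped between KD1 and scramble. Its log2 fold changes of 0.17 ± 0.19 in KD1 and 0.22 ± 0.19 in KD2 did not pass (adjusted p = 0.598 and 0.401). The 95% intervals ran from -0.30 to 0.64 and from -0.25 to 0.70.

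Eph receptors bind ephrins on neighbouring cells and steer cell contact, repulsion and migration. EPHA2, widely expressed in epithelial tumours, measured 8.99 and 8.61 in KD1, 8.66 and 8.54 in KD2, and 9.46 and 9.40 in scramble cells. All 4 knockdown arrays lay below both scramble arrays. EPHA2 was 1.78-fold lower in KD2 (-0.83 ± 0.16, adjusted p = 0.0187) and had -0.63 ± 0.16 in KD1 (adjusted p = 0.0698, and 0.0216 with the block). The KD1 minus KD2 difference of 0.19 ± 0.16 did not pass (95% interval -0.21 to 0.60). The KD2 call was lost without KD2 replicate 1 (adjusted p = 0.0907), KD2 replicate 2 (0.103), scramble replicate 1 (0.0916) or scramble replicate 2 (0.0775), and when dim probe sets were not filtered out (0.0818).

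EPHA7, known from nervous system development, changed most among the 17 by size of a called change. It measured 5.21 and 5.87 in KD1, 7.63 and 7.69 in KD2, and 4.37 and 4.63 in scramble cells. The 3 groups did not overlap, with KD2 highest and scramble lowest. EPHA7 was 8.94-fold higher in KD2 (3.16 ± 0.24, adjusted p = 0.00325) and had 1.04 ± 0.24 in KD1 (adjusted p = 0.0591, and 0.0156 with the block). The KD1 minus KD2 difference was -2.12 ± 0.24 (adjusted p = 0.00350). A dimmer probe set read 2.24 and 2.73 in KD1, 4.62 and 4.40 in KD2, and 2.24 on both scramble arrays, again highest in KD2. The KD2 call and the difference passed whichever array was left out.

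EPHA3, EPHA4 and EPHA5 also read highest in KD2 by their brightest probe sets, and they are set beside EPHA7 because of that, after their values had been seen. EPHA4 read 3.27 and 3.62 in KD1, 5.55 and 5.31 in KD2, and 2.80 and 3.25 in scramble cells. With no filter on dim probe sets its log2 fold change in KD2 was 2.40 ± 0.24 (adjusted p = 0.0336). In KD1 it was 0.42 ± 0.24 (adjusted p = 0.658), and KD1 minus KD2 was -1.98 ± 0.24 (adjusted p = 0.0311). EPHA3 read 2.25 and 2.28 in KD1, 3.18 and 3.62 in KD2, and 2.24 and 2.25 in scramble cells. It left the lowest range in KD2 without passing in that same fit (1.16 ± 0.17, adjusted p = 0.0555), while KD1 minus KD2 was -1.14 ± 0.17 (adjusted p = 0.0427). The KD1 and scramble arrays of EPHA3 lay at or next to the lowest value of the table. They therefore add little spread to these SEs, which may be too small. EPHA5 measured 4.45 and 5.83 in KD1, 6.81 and 7.63 in KD2, and 3.26 and 6.01 in scramble cells. The scramble arrays of EPHA5 differed by 2.75, and its KD2 value of 2.59 ± 1.00 did not pass (adjusted p = 0.111, and 0.0118 with the block). For all 4 genes the KD2 arrays lay above the KD1 and scramble arrays. The other probe sets of EPHA3, EPHA4 and EPHA5 stayed between 2.24 and 2.63, so each of these patterns rests on 1 probe set.

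EPHB4, the receptor of ephrin-B2, measured 7.72 and 7.78 in KD1, 7.46 and 7.88 in KD2, and 7.98 and 8.02 in scramble cells. All knockdown arrays lay below scramble, but neither -0.25 ± 0.16 in KD1 nor -0.33 ± 0.16 in KD2 passed (adjusted p = 0.381 and 0.187). Its dimmer probe set had differences of 0.09 and 0.26, of the opposite sign.

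**Figure D2:**
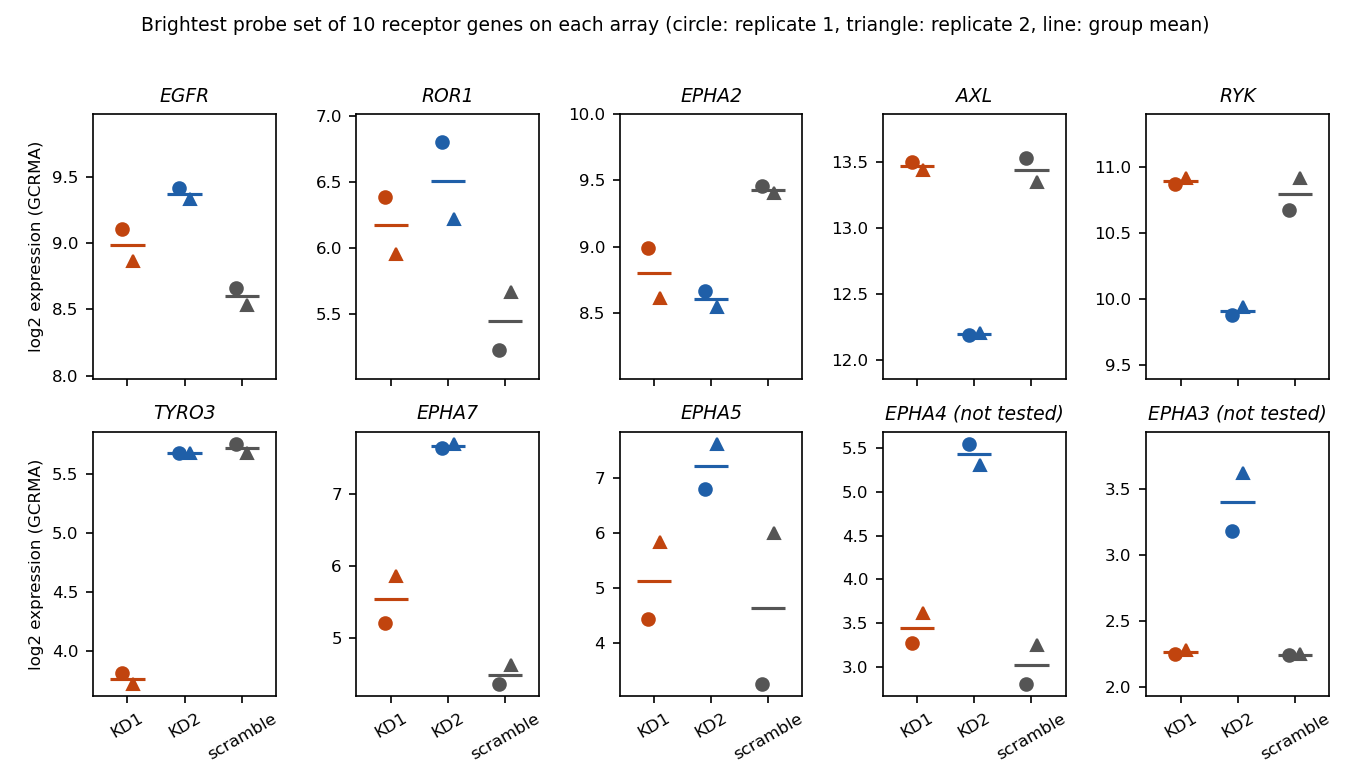
Log2 expression of the brightest probe set of 10 receptor genes on each array, by group (circles are replicate 1, triangles replicate 2, lines the mean of the 2 arrays). In EPHA7, EPHA5, EPHA4 and EPHA3 both KD2 arrays lie above the others, in AXL and RYK below them, and in TYRO3 the KD1 arrays at 3.81 and 3.72 lie lowest. Each panel has its own vertical axis, which does not start at 0.

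The promoters of the 4 EphA genes that read highest in KD2 are printed, beside those of AXL and RYK, which were lower in KD2. These genes were chosen after their values had been seen. EGFR and ROR1, which rose in KD2, and EPHA2, which fell, are not printed. Each is the 250 bases before the most upstream start of the gene, 5′ to 3′ on the strand of the gene, from RefSeq on GRCh38.p14. Capitals mark CCGCCC, the motif that the ARID domain of RBP2 is known to bind, and its reverse complement GGGCGG, which is also the core of the GC box of SP1.
EPHA7 promoter, chr6:93419560-93419809, minus strand: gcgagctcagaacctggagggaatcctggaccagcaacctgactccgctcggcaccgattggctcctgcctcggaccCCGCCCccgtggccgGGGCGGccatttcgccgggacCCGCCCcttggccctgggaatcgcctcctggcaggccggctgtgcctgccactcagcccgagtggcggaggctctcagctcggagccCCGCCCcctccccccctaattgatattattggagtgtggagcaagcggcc
EPHA5 promoter, chr4:65670490-65670739, minus strand: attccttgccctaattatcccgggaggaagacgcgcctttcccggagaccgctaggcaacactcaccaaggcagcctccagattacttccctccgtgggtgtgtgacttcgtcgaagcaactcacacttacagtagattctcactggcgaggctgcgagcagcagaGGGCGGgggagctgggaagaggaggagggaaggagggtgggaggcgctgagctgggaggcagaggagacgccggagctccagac
EPHA4 promoter, chr2:221574203-221574452, minus strand: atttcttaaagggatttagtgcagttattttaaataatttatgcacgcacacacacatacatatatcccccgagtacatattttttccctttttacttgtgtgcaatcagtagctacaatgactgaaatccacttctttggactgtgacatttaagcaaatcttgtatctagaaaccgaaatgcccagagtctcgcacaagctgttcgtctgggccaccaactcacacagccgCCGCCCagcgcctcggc
EPHA3 promoter, chr3:89107371-89107620, plus strand: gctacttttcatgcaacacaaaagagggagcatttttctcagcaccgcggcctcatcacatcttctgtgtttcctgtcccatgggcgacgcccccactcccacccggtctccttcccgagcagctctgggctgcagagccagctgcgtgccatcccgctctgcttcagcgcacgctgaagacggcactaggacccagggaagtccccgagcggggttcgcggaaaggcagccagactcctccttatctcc
AXL promoter, chr19:41218973-41219222, plus strand: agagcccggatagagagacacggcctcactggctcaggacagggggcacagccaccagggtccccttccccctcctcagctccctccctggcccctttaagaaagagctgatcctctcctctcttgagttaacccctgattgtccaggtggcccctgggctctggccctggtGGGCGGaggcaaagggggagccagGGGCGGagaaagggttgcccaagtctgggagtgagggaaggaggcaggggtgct
RYK promoter, chr3:134250860-134251109, minus strand: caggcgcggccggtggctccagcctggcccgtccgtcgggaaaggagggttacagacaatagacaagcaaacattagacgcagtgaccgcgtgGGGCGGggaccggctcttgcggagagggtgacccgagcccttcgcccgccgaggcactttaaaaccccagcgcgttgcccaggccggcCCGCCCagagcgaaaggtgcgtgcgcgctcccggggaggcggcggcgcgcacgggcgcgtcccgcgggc
The window of EPHA7 held 4 matches, that of EPHA5 and of EPHA4 1 each, and that of EPHA3 0, while AXL and RYK held 2 each. Of the genes called in KD2 but not printed, EGFR held 2, ROR1 0 and EPHA2 1. Of the tested receptor genes 15 had a promoter in the table, and 13 of these (86.7%) held a match on either strand. The share was 68.7% over 8733 promoters of tested genes and 42.2% over all 27305 promoters of this length. The median share of G and C was 72.0% in the 15 receptor promoters, 65.2% in those of tested genes and 57.6% in all. A match describes these letters only, and binding was not measured.

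RYK and ROR1 are receptors of Wnt proteins, and the kinase domain of RYK is regarded as inactive. RYK measured 10.87 and 10.91 in KD1, 9.88 and 9.94 in KD2, and 10.67 and 10.91 in scramble cells. Both KD2 arrays lay below all others. RYK was 1.84-fold lower in KD2 (-0.88 ± 0.13, adjusted p = 0.00925) and had 0.10 ± 0.13 in KD1 (adjusted p = 0.655), and KD1 minus KD2 was 0.98 ± 0.13 (adjusted p = 0.00447). Its 2 other probe sets, which read 7.27 and 6.97 in KD2 against 7.94 and 8.12 in scramble, and 6.08 and 6.16 against 7.02 and 7.05, had differences of -0.91 each. The KD2 call was lost without KD2 replicate 1 (adjusted p = 0.0698) or KD2 replicate 2 (0.0553), and the difference between the shRNAs passed whichever array was left out.

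ROR1, a receptor of WNT5A that is best known from development and leukaemia, measured 6.39 and 5.96 in KD1, 6.80 and 6.22 in KD2, and 5.23 and 5.67 in scramble cells. All 4 knockdown arrays lay above scramble. ROR1 was 2.09-fold higher in KD2 (1.06 ± 0.28, adjusted p = 0.0440), and KD1 had 0.72 ± 0.28 (adjusted p = 0.169). The KD2 call was lost whichever of the 6 arrays was left out (adjusted p from 0.0649 to 0.195). It was also lost with no filter on dim probe sets (adjusted p = 0.190). The fit with only the KD2 and scramble arrays in the model (adjusted p = 0.0649) is no further check. It gives the same ROR1 values as the fits without a KD1 array.

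EGFR, the receptor of EGF and TGF-alpha, measured 9.11 and 8.86 in KD1, 9.42 and 9.33 in KD2, and 8.66 and 8.54 in scramble cells. The 3 groups did not overlap, with KD2 highest and scramble lowest. EGFR was 1.71-fold higher in KD2 (0.78 ± 0.13, adjusted p = 0.0140) and had 0.39 ± 0.13 in KD1 (adjusted p = 0.131, and 0.0397 with the block). The KD1 minus KD2 difference of -0.39 ± 0.13 did not pass (adjusted p = 0.0708, and 0.0212 with the block). The second probe set, at 8.31 and 8.48 in KD2 against 7.65 and 7.57 in scramble, had a difference of 0.78 as well. The next one read 6.60 and 6.81 in KD2 and 6.78 and 6.57 in scramble, a difference of 0.03, so the probe sets of EGFR disagree. The KD2 call was lost without KD2 replicate 1 (adjusted p = 0.0886), KD2 replicate 2 (0.0701), scramble replicate 1 (0.0629) or scramble replicate 2 (0.0705). The call was also lost when dim probe sets were not filtered out (adjusted p = 0.0539). With the mean of all EGFR probe sets the KD2 change was 0.18 (adjusted p = 0.196). Most of these probe sets lay near the lowest value of the table on all arrays and add almost no difference to that mean.

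ERBB3, which signals as a partner of the other EGF receptors because its own kinase is weak, varied with the replicate number in every group. It measured 7.76 and 8.56 in KD1, 6.71 and 7.86 in KD2, and 6.90 and 7.95 in scramble cells. Replicate 2 was higher than replicate 1 by 0.80 in KD1, 1.14 in KD2 and 1.05 in scramble. Without the block its value of 0.74 ± 0.56 in KD1 did not pass (adjusted p = 0.447), and with the block it did (0.0160), as did KD1 minus KD2 (0.87, adjusted p = 0.265, and 0.00381 with the block). ERBB2, the co-receptor without a ligand of its own, measured 6.15 and 6.68 in KD1, 6.11 and 6.85 in KD2, and 6.79 on both scramble arrays. It did not pass in KD1 (-0.37 ± 0.30, adjusted p = 0.473) or KD2 (-0.31 ± 0.30, adjusted p = 0.467).

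MET, the receptor of hepatocyte growth factor, measured 10.56 and 10.45 in KD1, 10.82 and 10.53 in KD2, and 10.67 and 10.65 in scramble cells. KD2 overlapped with scramble, and both KD1 arrays lay just below it. The change was -0.16 ± 0.14 in KD1 (95% interval -0.51 to 0.20) and 0.02 ± 0.14 in KD2 (95% interval -0.34 to 0.37).

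FGFR1, a receptor of fibroblast growth factors, measured 9.16 and 9.59 in KD1, 9.35 and 9.39 in KD2, and 9.12 and 9.23 in scramble cells. Its log2 fold changes of 0.20 ± 0.17 in both knockdown groups did not pass (adjusted p = 0.501 in KD1 and 0.417 in KD2). Its other 5 probe sets above a mean of 4 had KD2 differences from 0.10 to 0.445. In KD1 they ran from -0.25 to 0.43, so they disagree in sign. FGFR4 stayed between 4.23 and 4.48 on all arrays, with 3 arrays at 1 identical value, and passed in no comparison.

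The insulin-like growth factor receptor IGF1R read 8.27 and 8.65 in KD1, 8.40 and 8.73 in KD2, and 8.48 and 8.81 in scramble cells, and it passed in no comparison. Replicate 2 lay above replicate 1 by 0.32 to 0.38 in every group. A dimmer IGF1R probe set read 5.60 and 6.07 in KD1, 6.81 and 6.79 in KD2, and 6.82 and 6.81 in scramble cells, a KD1 difference of -0.98 that the brightest probe set does not show. The insulin receptor INSR measured 6.94 and 7.48 in KD1, 6.81 and 7.24 in KD2, and 6.94 and 7.52 in scramble cells. A dimmer INSR probe set read 5.59 and 5.68 in KD1, 4.68 and 5.37 in KD2, and 6.15 and 6.06 in scramble cells. It is the brightest once probe sets ending in _s_at or _x_at are left out, and its KD2 value of -1.08 then passed (adjusted p = 0.0265), while a dimmer INSR probe set had 0.07.

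**Figure D3:**
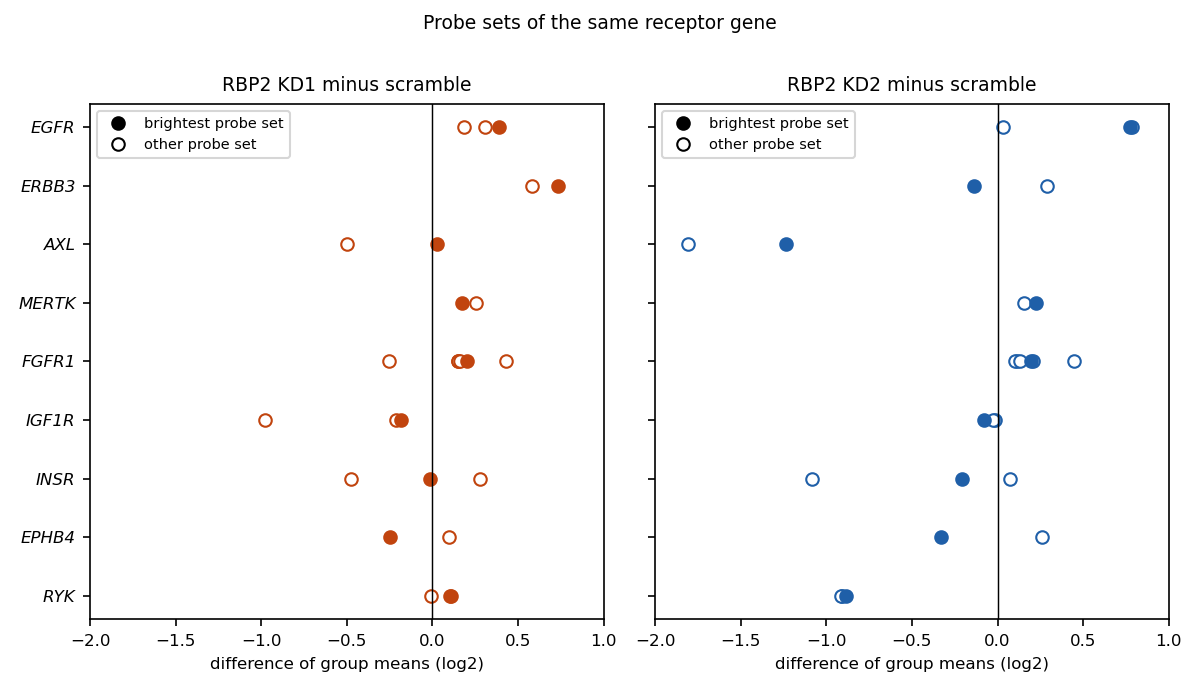
Difference of the group mean from scramble, in log2, for each probe set with a mean of at least 4 of the 9 receptor genes that have several, KD1 on the left and KD2 on the right (filled points are the brightest probe set). The 3 RYK probe sets lie together at -0.88 to -0.91 in KD2, whereas those of EGFR span 0.03 to 0.78 and those of INSR -1.08 to 0.07.

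The probe sets thus differ in how well they bear out a gene's value. There were 17 further probe sets with a mean of at least 4, in 9 of the tested receptor genes. In KD2 the called genes EGFR, AXL and RYK had 5 of these, and all 5 had the sign of the brightest one, although 1 EGFR probe set was near 0. In KD1 the called gene TYRO3 had none.

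Values of the receptor genes also moved with the replicate number. In 9 of the 17 tested genes replicate 2 lay above replicate 1 in all 3 groups, and in 3 it lay below in all 3. Beside ERBB3, the clearest cases were EPHA5, with differences of 1.38 in KD1, 0.82 in KD2 and 2.75 in scramble, and INSR with 0.54, 0.43 and 0.57. The labels do not say what the number stands for, and its part in these results was not tested beyond the block.

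**Figure D4:**
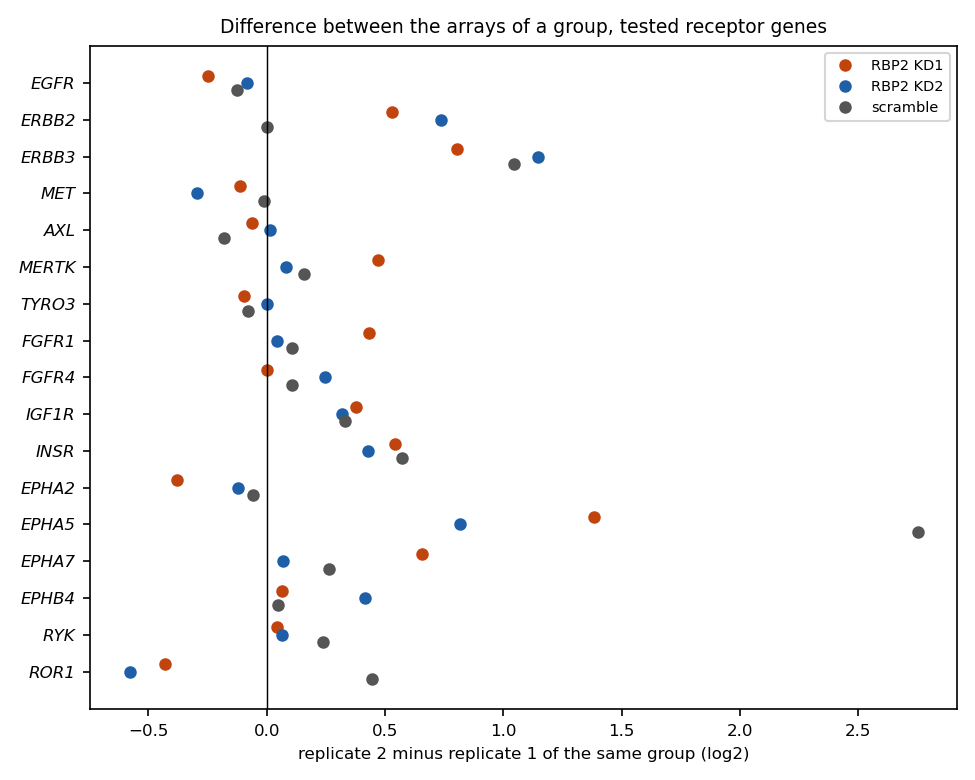
Replicate 2 minus replicate 1, in log2, within KD1, KD2 and scramble for the 17 tested receptor genes. ERBB3 lies at 0.80 to 1.14 and INSR at 0.43 to 0.57 in all groups, EPHA5 reaches 2.75 in scramble, and AXL, RYK and TYRO3 lie within 0.24 of 0.

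Ligands were examined next, as a list of 50 genes of which 26 were tested. In KD2, 5 rose and none fell, against 16.7% of all tested genes rising and 14.4% falling. They were TGFA, PDGFB, PDGFD, VEGFC and BDNF, of which BDNF, like VEGFA and EFNA1, was chosen for naming after its values were seen. In KD1, 3 fell and none rose, against 7.9% falling and 3.62% rising, and these were TGFA, VEGFA and BDNF. In the mean of both shRNAs 3 rose and 1 fell, 15.4% against 12.5% of all genes. KD1 minus KD2 called 9 of 26, with 2 higher in KD1 and 7 lower, 34.6% against 41.1%. The blocked model called 10 rises and 3 falls in KD2, 50.0% against 50.6% of all genes, and 3 rises and 5 falls in KD1, 30.8% against 29.6%. PDGFB reached the minimum mean of 4 only through its KD2 arrays, so its place among the rises follows in part from the filter.

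TGFA encodes TGF-alpha, a ligand of EGFR, and it moved in opposite directions. It measured 7.27 and 7.09 in KD1, 10.01 and 10.18 in KD2, and 9.17 and 9.47 in scramble cells. The 3 groups did not overlap, with KD1 lowest and KD2 highest. TGFA was 4.40-fold lower in KD1 (-2.14 ± 0.16, adjusted p = 0.00703) and 1.71-fold higher in KD2 (0.78 ± 0.16, adjusted p = 0.0208). The KD1 minus KD2 difference was -2.91 ± 0.16 (adjusted p = 0.00112).

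BDNF, the ligand of the receptor encoded by NTRK2, also moved both ways. It read 8.91 and 9.26 in KD1, 11.19 and 11.26 in KD2, and 9.74 and 9.99 in scramble cells. It was 2.57-fold higher in KD2 (1.36 ± 0.17, adjusted p = 0.00687) and 1.71-fold lower in KD1 (-0.78 ± 0.17, adjusted p = 0.0495). NTRK2 itself lay near the lowest value by all 6 of its probe sets.

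VEGFC, which activates the receptor FLT4 of lymphatic vessels, read 7.17 and 7.44 in KD1, 8.65 and 8.74 in KD2, and 6.96 and 7.27 in scramble cells, a 2.98-fold rise in KD2 (1.58 ± 0.16, adjusted p = 0.00495). PDGFD, a ligand of PDGFRB, read 3.97 and 4.14 in KD1, 6.07 and 6.34 in KD2, and 4.02 and 4.20 in scramble cells, 4.26-fold higher in KD2 (2.09 ± 0.15, adjusted p = 0.00325). KD2 stood above both other groups in VEGFC and PDGFD. PDGFB read 3.74 on both KD1 arrays, 5.09 and 4.79 in KD2, and 3.71 on both scramble arrays. Its KD2 value was 1.24 ± 0.14 (adjusted p = 0.00520). Only the KD2 arrays brought PDGFB to the minimum mean of 4, so this rise follows in part from the filter. PDGFRA and PDGFRB, the receptors of the PDGFs, lay near the lowest value in every group.

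VEGFA, the main ligand of KDR, fell in KD1 (-1.70 ± 0.31, adjusted p = 0.0335). It read 7.93 and 8.48 in KD1, 9.54 and 9.68 in KD2, and 9.54 and 10.27 in scramble cells. Both KD1 arrays lay below all others. Its 2 other probe sets above a mean of 4 had KD1 differences of -0.44 and -0.21. The TAM ligands GAS6 and PROS1 passed in no comparison, with or without the block, and EFNA1, an ephrin that binds EPHA2, was higher in KD1 than in KD2 by 1.60 ± 0.28 (adjusted p = 0.0107).

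**Figure D5:**
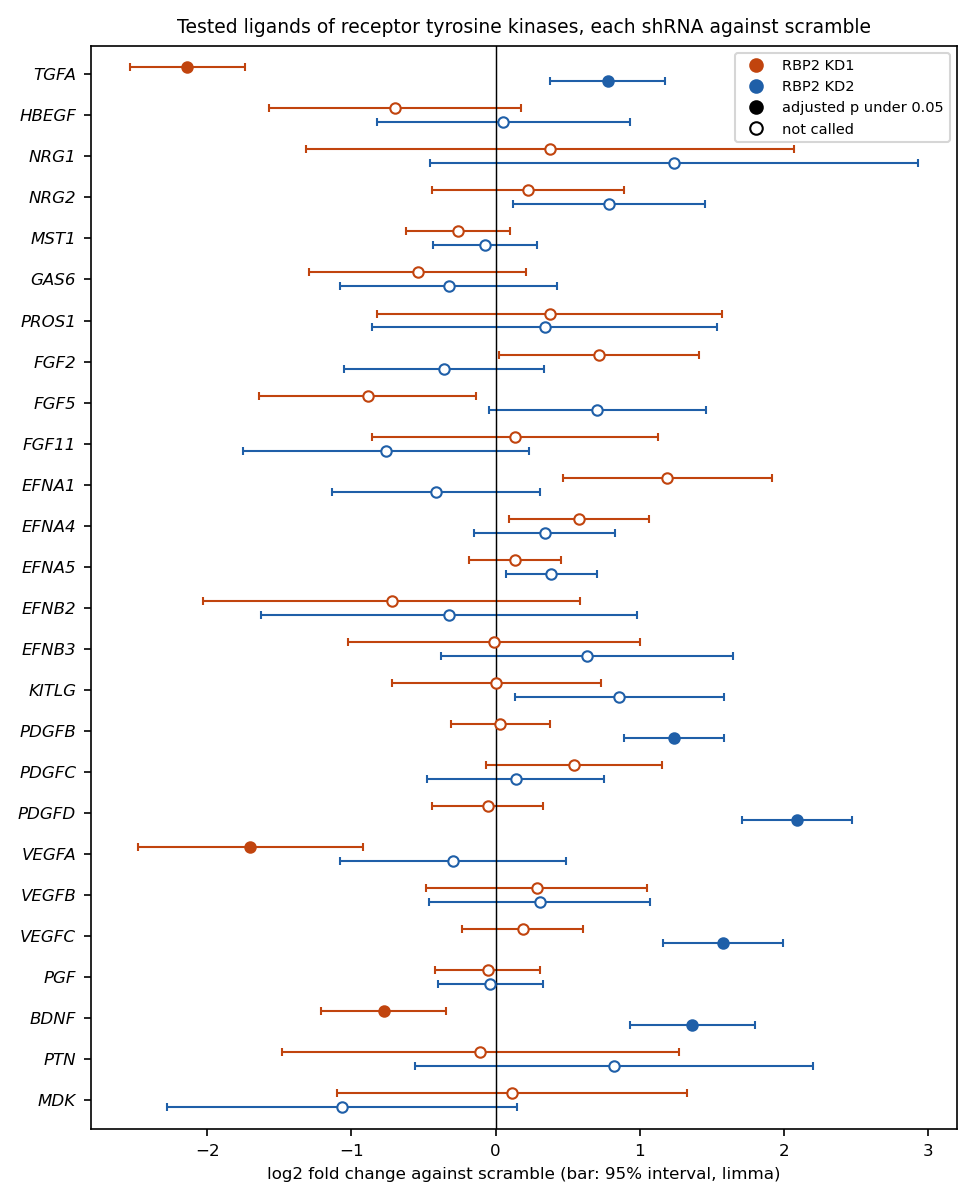
Log2 fold change of the 26 tested ligands in KD1 and KD2 against scramble (points with 95% intervals from limma, filled where the adjusted p was under 0.05). TGFA lies at -2.14 in KD1 and 0.78 in KD2, BDNF at -0.78 and 1.36, and PDGFD at -0.06 and 2.09.

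Among 9 tested co-receptors and shedding genes, RHBDF2, which carries the protease ADAM17 that releases TGF-alpha, rose in both knockdown groups. It read 7.27 and 7.31 in KD1, 7.05 and 7.18 in KD2, and 6.45 and 6.60 in scramble cells (0.77 ± 0.12 in KD1, adjusted p = 0.0235, and 0.59 ± 0.12 in KD2, adjusted p = 0.0201). The list had 1 rise and 1 fall in each of KD1, KD2 and their mean, 22.2% of its tested genes, against 11.5%, 31.0% and 12.5% of all genes. With the block 3 (33.3%), 4 (44.4%) and 5 (55.6%) were called, against 29.6%, 50.6% and 34.9% of all genes. The falls were the heparan sulphate proteoglycan gene SDC4 in KD2 and in the mean (-1.06 ± 0.10 in KD2, adjusted p = 0.00409) and GPC1 in KD1 (-1.32 ± 0.24, adjusted p = 0.0347).

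Of 20 tested adaptors and effectors, 3 rose and 2 fell in KD2, 25.0% against 31.0% of all genes, and 2 fell in KD1, 10.0% against 11.5%. With the block 8 (40.0%) were called in KD2 and 6 of 20 in KD1, against 50.6% and 29.6% of all genes. YES1, a kinase of the SRC family, fell in both, at 10.77 and 10.92 in KD1 and 10.51 and 10.76 in KD2 against 11.59 and 11.78 in scramble cells. Its log2 fold change was -0.83 ± 0.15 in KD1 (adjusted p = 0.0311) and -1.05 ± 0.15 in KD2 (adjusted p = 0.00887). The adaptor NCK2 rose in the mean of both shRNAs (0.48 ± 0.09, adjusted p = 0.0386) and in KD2 (0.54 ± 0.11, adjusted p = 0.0204). The other calls, named after their values were seen, were IRS1, PIK3CB and STAT3 in KD2, at 1.29, 0.78 and -1.07, and VAV2 in KD1 at -0.83. The dimmer probe sets of IRS1 and STAT3 had the same sign in KD2, and that of PIK3CB had 0.06. By their brightest probe sets the core adaptors GRB2, SOS1 and SHC1 passed in no comparison, but other probe sets disagree. The second probe set of GRB2 read 9.88 and 10.05 in KD1, 7.02 and 7.90 in KD2, and 9.44 and 9.64 in scramble cells, a KD2 difference of -2.08 against -0.07 for the brightest. The second of SOS1 had a KD2 difference of -0.83 against 0.21 for the brightest. In the main fit these second probe sets were not tested. That of GRB2 stood for the gene once probe sets ending in _s_at or _x_at were left out. Its value in that fit is not given here.

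Of 22 tested inhibitors, phosphatases and turnover genes, 3 rose and 5 fell in KD2, 36.4% against 31.0% of all genes, and 1 rose and 2 fell in KD1, 13.6% against 11.5%. With the block 13 (59.1%) were called in KD2 and 6 (27.3%) in KD1, against 50.6% and 29.6% of all genes. CBL, the ubiquitin ligase that marks activated receptors for degradation, read 9.88 and 10.13 in KD1, 7.94 and 8.35 in KD2, and 9.75 and 9.94 in scramble cells. It was 3.27-fold lower in KD2 (-1.71 ± 0.19, adjusted p = 0.00535), and its dimmer probe set had a KD2 difference of -1.35. CD2AP, an adaptor of receptor endocytosis, fell in both groups, at 10.44 and 10.69 in KD1 and 10.14 and 10.34 in KD2 against 11.57 and 11.61 in scramble cells. Its log2 fold change was -1.02 ± 0.14 in KD1 (adjusted p = 0.0189) and -1.35 ± 0.14 in KD2 (adjusted p = 0.00495).

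RNF41, a ubiquitin ligase known to degrade ERBB3, rose in both by its brightest probe set, at 7.60 and 7.50 in KD1 and 7.69 and 7.94 in KD2 against 6.73 and 6.76 in scramble cells. The change was 0.80 ± 0.13 in KD1 (adjusted p = 0.0258) and 1.07 ± 0.13 in KD2 (adjusted p = 0.00643). Its 2 other probe sets had KD2 differences of -1.35 and -0.56, of the opposite sign, so its direction in KD2 rests on the probe set. The other calls in KD2, named after their values were seen, were LRIG2 and STAM at 0.85 and 0.70, and PTPRF, STAM2 and HGS at -0.61, -0.78 and -0.51, and the remaining fall in KD1 was SH3KBP1 at -0.62. The dimmer probe set of LRIG2 had a KD2 difference of -0.87, so its direction also rests on the probe set. STAM, STAM2 and HGS belong to the complex that sorts ubiquitinated receptors in the endosome.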

How the data were processed

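Total RNA of 6 H1299 samples was hybridised to 6 Affymetrix arrays, 1 colour, with 250 ng of RNA each per the labels' protocols. The deposited values are log2 expression per probe set, for which the submitters' processing notes name GCRMA without a version. No detection call was used. Gene names came from the platform annotation: of 54675 probe sets, 41091 carried 1 symbol, 1801 several and 11721 none, beside 62 controls. The brightest probe set over the 6 arrays stood for a gene, and 10526 of 19775 genes with a mean of at least 4 were tested with limma 3.58.1 in R 4.3.3, all 3 groups in 1 model, with Benjamini-Hochberg adjustment over all of them at 0.05. Errors are SE with n = 2 arrays a group, whose number limits the precision. The fit was tested on simulated data.

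The labels do not say whether the numbers 1 and 2 pair the samples. Over 10526 genes arrays of the same number deviated together, with correlations of 0.53 (KD1 and KD2), 0.75 (KD1 and scramble) and 0.51 (KD2 and scramble). The main model has no term for the number, and the blocked model has one. Alternatives were other filters on dim probe sets, the mean of all probe sets, leaving out probe sets ending in _x_at or _s_at, renewed quantile normalization, an intensity trend, only the groups compared, the replicate block, and each array left out. No scanner files or scan dates were used, so array batches were not tested. The members and lists were chosen with earlier results of these data known. Values per array are given for receptor genes called in at least 1 comparison and for the 5 with the highest mean, and from each other list for up to 4 genes, ranked by adjusted p in the mean comparison, and those called with both shRNAs. Other genes were named after their values were seen. Promoters are from RefSeq on GRCh38.p14.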

Additional observations from a re-analysis of the deposited data

Results flagged for a closer look

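For 4 receptor genes the effects of the shRNAs against scramble differed by limma's test of KD1 minus KD2, among 17 tested and against 41.1% of all tested genes. The difference was 1.26 for AXL (adjusted p = 0.00200) and 0.98 for RYK (adjusted p = 0.00447), both higher in KD1 than in KD2. It was -1.91 for TYRO3 (adjusted p = 0.00113) and -2.12 for EPHA7 (adjusted p = 0.00350), both lower in KD1 than in KD2. KDM5A itself was higher in KD1 than in KD2 by 0.65 ± 0.11 (adjusted p = 0.0101). That difference was 0.35 with the mean of all KDM5A probe sets (adjusted p = 0.0442) and 0.30 without probe sets ending in _x_at or _s_at, where it did not pass (0.158). It was also lost without KD2 replicate 1 (0.62, adjusted p = 0.0628). The part of the KDM5A level in these differences was not tested.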

How the results depend on the processing

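The number of receptor genes called in the mean of both shRNAs was 5 of 17 (12.5% of all genes). It was 3 of 13 with a minimum mean of 6 (15.8%), 1 of 40 with no filter (1.68%), 3 of 11 with all probe sets of a gene averaged (12.2%), 3 of 12 without probe sets ending in _x_at or _s_at (13.0%), and 8 of 17 with the replicate block (34.9%). In KD1 it was 1 (11.5% of all genes), and 5 with the block (29.6%). With a minimum mean of 6, the mean of all probe sets, or the _x_at and _s_at sets left out, it was 0 in KD1, where limma's unadjusted p under 0.05 counted 3, 1 and 4 genes, and 12.8%, 10.9% and 12.4% of all genes were called. TYRO3, the gene called, was not among the genes tested in those 3 settings. In KD1 minus KD2 it was 4 (41.1% of all genes), and 7 with the block (57.7%). With those 3 settings in the same order it was 2, 2 and 1 (44.2%, 39.8% and 41.9%). In KD2 it was 6 of 17 (31.0% of all genes), and 4 to 7 under the alternatives that kept all arrays of both groups. Among these were 4 of 40 with no filter (7.43%), 4 of 11 with all probe sets averaged (30.5%) and 7 of 17 with the block (50.6%). With an array left out, the share of all genes called fell in every comparison, so the counts of receptor genes in those fits cannot be set against the counts above. In the mean comparison the count over all tested genes was 0 without KD2 replicate 1 (2674 genes at an unadjusted p under 0.05), KD2 replicate 2 (2818), scramble replicate 1 (2247) or scramble replicate 2 (2545). Of the 16 called values of receptor genes, none changed direction while called. With all arrays kept, each called value was followed through every setting in which its gene was still tested. The call held in 93 of these 103 pairs of value and setting. Settings in which the gene dropped out of the test, as TYRO3 did, are not counted. Calls were lost more often with an array left out. The block changed no other call of the 17 receptor genes than those given beside the results and those of RYK (adjusted p = 0.0277) and ROR1 (0.0446) in the mean of both shRNAs and of EPHA5 in that mean (0.0449) and in KD1 minus KD2 (0.0184).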

Other observations

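Of 13 receptor tyrosine kinases outside the list, 12 were measured and 2 tested. STYK1, whose protein lacks most of an extracellular part, measured 3.49 and 2.76 in KD1, 5.35 and 5.25 in KD2, and 4.65 and 4.55 in scramble cells. It fell in KD1 (-1.47 ± 0.25, adjusted p = 0.0302), had 0.70 ± 0.25 in KD2 (adjusted p = 0.0942, and 0.0347 with the block), and KD1 minus KD2 was -2.17 ± 0.25 (adjusted p = 0.00365). STYK1 reached the minimum mean of 4 only through its KD2 arrays, so its place among the tested genes follows in part from the filter. The same holds for its KD1 minus KD2 difference. FLT4, the receptor of VEGFC, measured 4.15 and 4.26 in KD1, 5.50 and 5.01 in KD2, and 5.04 and 4.71 in scramble cells. It passed against scramble in neither group (adjusted p = 0.109 in KD1, and 0.0433 with the block, and 0.231 in KD2), and KD1 minus KD2 was -1.05 ± 0.21 (adjusted p = 0.0156). In both genes the KD1 arrays lay below all others.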
